A study of Mus musculus with 7 samples.

Results

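The miR-7 family of microRNAs (miRNAs) was followed through 7 small RNA libraries, each from a sorted population of the embryonic mouse spinal cord. The family was taken by name as 5 mature strands, namely the guide strands mmu-miR-7a-5p and mmu-miR-7b-5p and the passenger strands mmu-miR-7a-1-3p, mmu-miR-7a-2-3p and mmu-miR-7b-3p (written without the species prefix from here on), which are 5 of the 1908 mature miRNAs in each deposited table. At embryonic stage E10.5 spinal cords of Hb9::gfp embryos, in which a reporter driven by Hb9 sequences labels motoneurons, were sorted into a GFP-positive motoneuron fraction (2 libraries) and a GFP-negative fraction of the remaining spinal cells (2 libraries). At E12.5 there was 1 library each of GFP-positive Hb9::gfp motoneurons, of tdTomato-positive V2a interneurons from Chx10::cre;Rosa26::LSL::tdTomato embryos, and of tdTomato-positive V3 interneurons from Sim1::cre;Rosa26::LSL::tdTomato embryos. A Cre reporter of this kind marks every cell with a history of the driver, and both interneuron groups carry the Cre and the reporter while the motoneurons carry neither. Separate embryos, litters or sorts are not stated for the replicates, and every p-value therefore measures a spread between libraries that may be technical.

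A miRNA is cut by Dicer from a hairpin as a duplex of 2 strands, of which Argonaute keeps mainly the guide and loses the passenger. Bases 2 to 8 of a strand, the seed, pair with target mRNAs. miR-7 is conserved from flies to mammals and is known for high levels in neuroendocrine cells, such as those of the pancreatic islet and pituitary, and in neurons. Its guide binds the many miR-7 sites of the circular RNA Cdr1as, miR-671 directs the slicing of Cdr1as, and the long noncoding RNA Cyrano directs the destruction of miR-7.

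The sequences show which rows of the tables can report a single hairpin. They are from RefSeq (GRCm38.p6), where all 5 members were found, with the seed in capitals.
miR-7a-5p: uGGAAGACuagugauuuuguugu
miR-7b-5p: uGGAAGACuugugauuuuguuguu
miR-7a-1-3p: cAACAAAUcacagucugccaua
miR-7a-2-3p: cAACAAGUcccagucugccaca
miR-7b-3p: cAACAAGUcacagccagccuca

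Both guides carry the seed GGAAGAC, which no other mature miRNA of the RefSeq table carries. Counted from the 5′ end, miR-7a-5p and miR-7b-5p differ by the single substitution A10U outside the seed, and by the 3′ end, since their lengths are 23 and 24 nt. The passengers are all 22 nt long and further apart. From miR-7a-1-3p to miR-7a-2-3p there are 3 substitutions (A7G, A10C and U21C), of which A7G lies in the seed. The seed AACAAGU is shared by miR-7a-2-3p and miR-7b-3p, which differ at 4 positions (C10A, U14C, U16A and A20U).

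The 3 hairpins are shown next with the mature arms in capitals, the guide first. The guide of Mir7-1 and Mir7-2 is the same sequence, so miR-7a-5p reads cannot be traced to either hairpin, while each passenger belongs to 1 hairpin.
Mir7-1: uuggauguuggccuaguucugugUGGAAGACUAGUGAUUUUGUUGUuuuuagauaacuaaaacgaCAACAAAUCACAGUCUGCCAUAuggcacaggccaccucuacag
Mir7-2: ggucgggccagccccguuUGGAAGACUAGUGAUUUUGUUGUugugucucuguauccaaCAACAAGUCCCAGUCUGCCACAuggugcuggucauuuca
Mir7b: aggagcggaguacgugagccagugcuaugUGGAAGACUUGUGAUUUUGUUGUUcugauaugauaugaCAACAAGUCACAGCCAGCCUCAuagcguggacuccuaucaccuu

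Mir7-1 lies at chr13:58392779-58392886 on the minus strand, within an intron of Hnrnpk, which encodes an RNA-binding protein and is read from the same strand. Mir7-2 lies at chr7:78888277-78888373 on the plus strand in no annotated gene, 7481 bp from Aen, the nearest protein-coding gene. Mir7b lies at chr17:56242988-56243098 on the plus strand, also in no annotated gene, 13712 bp from Fem1a. These positions are on GRCm38, with the GENCODE annotation, since the build used for the deposited tables is not given in the sources used here. In the E10.5 table both guides sit in 1 bundle of near-identical miRNAs, between which reads were split as fractions, whereas each passenger has a bundle of its own. The guide sum is therefore given beside the separate guides.

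Library depths, recovered from the smallest steps of the values, were between 493234 and 802743 reads for the E10.5 set and between 3603402 and 4605435 reads for the E12.5 set. The motoneuron marker miR-218-5p followed the labels, at 177885 and 200305 reads per 1000000 (RPM) in the E10.5 motoneuron libraries and 6623 and 7315 in the GFP-negative ones. All 10 mesenchymal and smooth muscle markers were called lower in E10.5 motoneurons, with a summed level of 1571 and 424 RPM against 81413 and 94290 in GFP-negative cells. miR-145a-3p was at 0 in both motoneuron libraries. It therefore reached the abundance filter (15.2 RPM in at least 2 libraries) only through the GFP-negative libraries, where it is high. The count of marker calls is thus not independent of that filter. The 3 sensory neuron markers were also called lower, with sums of 1971 and 2325 against 9171 and 9535 RPM. Over all 492 miRNAs tested, 30.7% were called lower. The part of these other cell types in the miR-7 differences was not tested. In sorted bulk libraries, fewer cells of a type and less RNA per cell cannot be told apart.

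The E10.5 comparison asked how the miR-7 strands of motoneurons differ from those of other spinal cells. Both guides were abundant in both fractions and modestly higher in motoneurons, by 1.40-fold for miR-7a-5p and 1.51-fold for miR-7b-5p. Among the passengers, miR-7a-2-3p was 6.06-fold higher in motoneurons. Levels of the other passengers were 2.32-fold (miR-7a-1-3p) and 4.75-fold (miR-7b-3p) higher without passing the test or without being tested.

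miR-7a-5p, the main guide, was at 14719 and 14329 RPM in motoneurons (mean 14524 ± 276, SD, n = 2) and at 9198 and 11552 RPM in GFP-negative cells (10375 ± 1665, SD, n = 2). Its rank by level among all miRNAs was 14 and 13 in motoneurons and 21 and 20 in GFP-negative cells. Both motoneuron libraries lay above both GFP-negative libraries. The GFP-negative pair, however, differed from each other (1.26-fold) about as much as the nearer libraries of the groups did. On the log2 scale the difference was 0.49 (limma adjusted p = 0.0448, SE 0.16). miR-7b-5p, the second guide, stood at 2702 and 2298 RPM in motoneurons and 1578 and 1729 RPM in GFP-negative cells. Its difference was 0.59 on the log2 scale (limma adjusted p = 0.0292, SE 0.17), again with no overlap of the groups.

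The sum of both guides, which does not depend on how shared reads were split, was 17421 and 16627 RPM in motoneurons and 10776 and 13282 RPM in GFP-negative cells. This is 1.42-fold higher in motoneurons (log2 fold change 0.51, SE 0.16, limma adjusted p = 0.0478). Of 420 rows tested after summing shared rows, 10% were called higher. The guide calls were close to the threshold. Without motoneuron replicate 1, motoneuron replicate 2 or non-motoneuron replicate 1, the sum had limma adjusted p = 0.177, 0.134 and 0.0873, and neither guide alone passed in those fits. With the mesenchymal and skeletal muscle markers taken out of the totals the sum had a log2 fold change of 0.37 (limma adjusted p = 0.117). Other scalings moved it the other way, to 0.82 under median-of-ratios scaling (limma adjusted p = 0.0078), 0.83 under quantile normalization (0.0128) and 0.94 with the 5 most abundant miRNAs left out of the totals (0.0022).

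**Figure D1:**
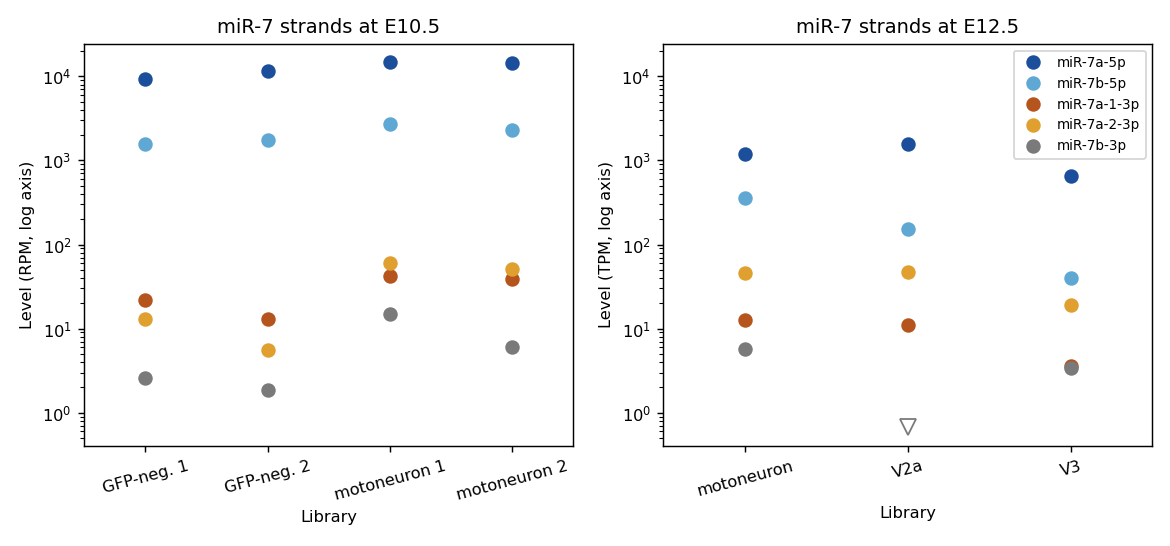
Level of each miR-7 strand in each library on a log axis, in RPM at E10.5 (left, 4 libraries) and in TPM at E12.5 (right, 3 libraries); the open triangle marks a level of 0, drawn at the 3-read limit. Each guide lies above every passenger in each library, least so in V3, where miR-7b-5p is at 39.96 TPM and miR-7a-2-3p at 19.1 TPM. miR-7a-2-3p lies below miR-7a-1-3p in both GFP-negative libraries and above it in the other 5.

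Passenger strands were rare, and few reads stood behind each value. miR-7a-2-3p, the passenger of Mir7-2, stood at 61.0 and 50.7 RPM in motoneurons (49 and 25 reads) and at 12.9 and 5.57 RPM in GFP-negative cells (10 and 3 reads). The motoneuron libraries lay well above the GFP-negative ones, with a difference of 2.57 on the log2 scale (limma adjusted p = 0.0059, SE 0.48). The strand reached the abundance filter of 15.2 RPM only in the motoneuron libraries, so it entered this test through the group where it is high. With only all-zero rows removed, a filter that does not depend on the group, the same difference had limma adjusted p = 0.0148. When either motoneuron library was left out it was not tested. Without non-motoneuron replicate 1 or 2 its log2 fold change was 3.11 and 2.03 (limma adjusted p = 0.0032 and 0.0123).

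miR-7a-1-3p, the passenger of the Hnrnpk-hosted Mir7-1, was at 42.4 and 38.5 RPM in motoneurons (34 and 19 reads) and at 21.9 and 13.0 RPM in GFP-negative cells (17 and 7 reads). The groups did not overlap, but the log2 fold change of 1.21 (SE 0.41, 95% interval 0.22 to 2.19) missed the threshold (limma adjusted p = 0.0533). It passed with the median of ratios (log2 fold change 1.47, limma adjusted p = 0.0346). A pseudocount of 5 RPM, quantile normalization, totals without the 5 most abundant miRNAs and the replicate number as a term also let it pass. It missed with only all-zero rows removed (limma adjusted p = 0.137). With the mesenchymal and skeletal muscle markers out of the totals it missed too (limma adjusted p = 0.0743). miR-7b-3p, the passenger of Mir7b, was below the abundance filter, with 14.95 and 6.08 RPM in motoneurons (12 and 3 reads) and 2.57 and 1.86 RPM in GFP-negative cells (2 reads and 1 read). Its groups did not overlap either, at counts too low for a call.

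Of the 5 members, 4 reached the abundance filter, among them miR-7a-2-3p only through the motoneuron libraries, so the calls are given strand by strand. With only all-zero rows removed all 5 were tested, and miR-7a-2-3p was the 1 called. Over all 492 miRNAs tested, 11.6% were called higher and 30.7% lower, and 25% were higher in motoneurons without overlap of the groups. The split of calls depended on the scaling, with 57 higher and 151 lower as deposited, and 85 higher and 117 lower under median-of-ratios scaling. The median log2 fold change of all tested miRNAs was -0.34 as deposited and -0.06 under median-of-ratios scaling. Relative to the deposited median, miR-7a-5p stood 0.83 higher, miR-7b-5p 0.93, miR-7a-1-3p 1.55 and miR-7a-2-3p 2.91 on the log2 scale. Every tested member kept a positive log2 fold change in each alternative in which it was tested.

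**Figure D2:**
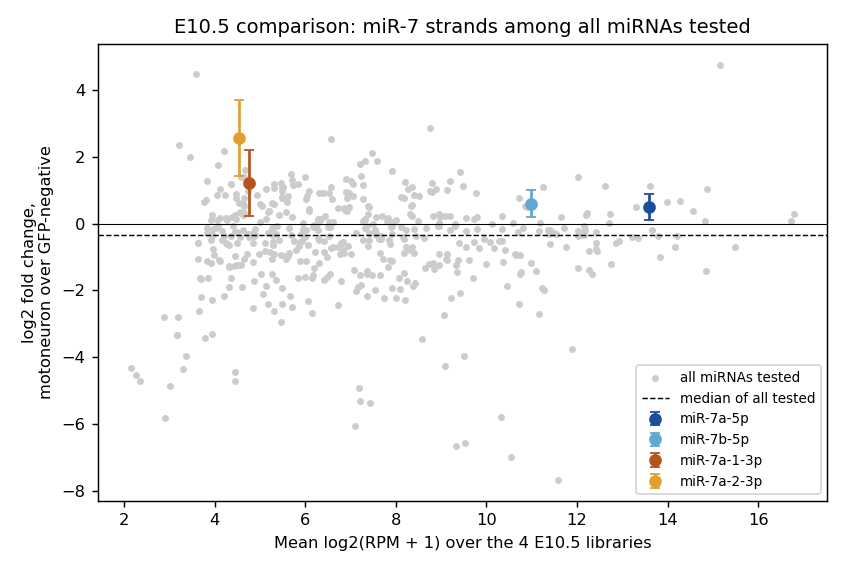
Log2 fold change of motoneurons over GFP-negative cells at E10.5 against the mean log2(RPM + 1) of the 4 libraries, for the 492 miRNAs tested (grey) and the 4 miR-7 members tested (coloured, with the 95% interval of the limma fit). All 4 members lie above the dashed median of -0.34, and miR-7a-2-3p is the highest of them at 2.57.

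Ratios between strands of the same library do not depend on how libraries were scaled. At E10.5 the Mir7-2 passenger made up 59.0% and 56.8% of the reads of both Mir7a passengers in motoneurons (95% exact binomial intervals 47.7 to 69.7% and 41.0 to 71.7%) and 37.0% and 30% in GFP-negative cells (19.4 to 57.6% and 6.67 to 65.2%). Both motoneuron libraries were higher, though the intervals overlap. In log2 units the ratio of miR-7a-2-3p to miR-7a-1-3p was 1.46 higher in motoneurons (exact two-sided permutation p = 0.333, the smallest that 2 libraries against 2 can give).

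The proportion of the guide to its passengers, which rests on the same few passenger reads, was also compared. Per nucleotide, miR-7a-5p exceeded the sum of miR-7a-1-3p and miR-7a-2-3p by 136-fold and 154-fold in the E10.5 motoneuron libraries. In the GFP-negative libraries the excess was 253-fold (95% counting interval 174 to 385) and 595-fold (323 to 1242). The groups did not overlap, and the log2 ratio was lower by 1.42 in motoneurons (exact two-sided permutation p = 0.333). For miR-7b-5p over miR-7b-3p the excess was 166-fold and 346-fold in motoneurons and 563-fold and 852-fold in GFP-negative cells, the last with an interval of 153 to 33780 because it rests on 1 passenger read. By contrast, miR-7b-5p made up a like share of the guide reads in every E10.5 library, 15.5% and 13.8% in motoneurons and 14.6% and 13.0% in GFP-negative cells, with overlap of the groups (exact two-sided permutation p = 0.667). Of the 4 within-library ratios compared, none passed, with Benjamini-Hochberg adjusted values of 0.444 to 0.667 over exact permutation tests that cannot go below 0.333.

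**Figure D3:**
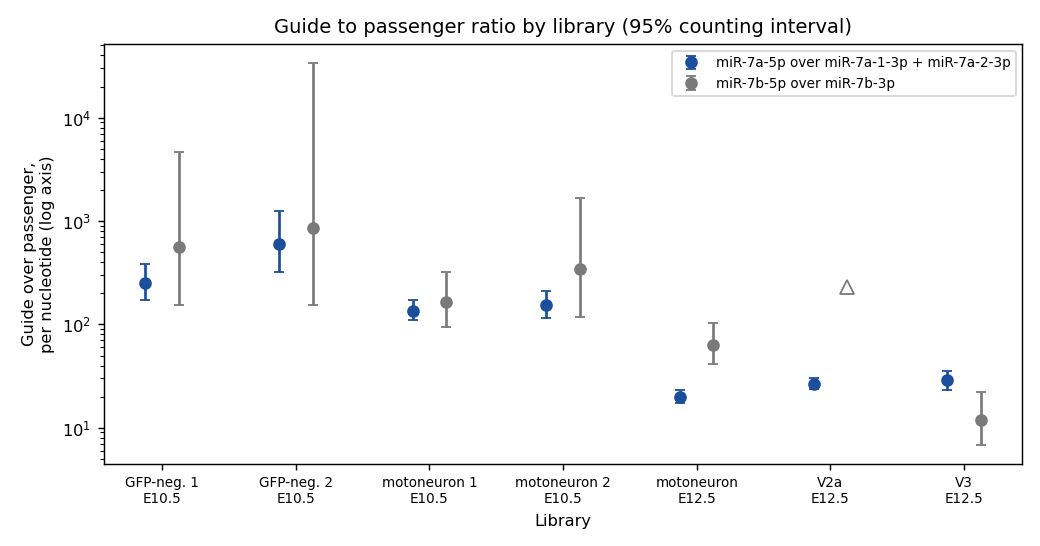
Ratio of guide to passenger per nucleotide in each library, on a log axis, with 95% counting intervals; the open triangle is a lower bound for V2a, which had no miR-7b-3p read. The miR-7a ratio runs from 136 to 595 in the E10.5 libraries and from 20.02 to 28.7 in the E12.5 libraries.

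At E12.5 the 3 neuron types were compared as single libraries, with no replicate check. Levels are given in transcripts per 1000000 (TPM), the deposited per-length values rescaled to a sum of 1000000. The intervals that follow cover counting error only. miR-7a-5p was highest in V2a interneurons and miR-7b-5p highest in motoneurons, and V3 interneurons had the lowest level of 4 of the 5 strands.

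miR-7a-5p stood at 1183 TPM in the motoneuron library, 1550 in V2a and 653 in V3. The V2a library was 2.37-fold above V3 (95% counting interval 2.27 to 2.48), and the motoneuron level was 0.763 of the V2a level (0.735 to 0.792). Such a gap between motoneurons and V2a is about the size of the replicate difference seen for this strand at E10.5, where the GFP-negative libraries differed 1.26-fold. It was wider, at 0.488 of the V2a level, with the 5 most abundant miRNAs left out of the totals. Under median-of-ratios scaling it was narrower, at 0.91 of the V2a level. miR-7b-5p had another order, with 357 TPM in the motoneuron library, 153 in V2a and 39.96 in V3. The motoneuron level was 2.33-fold that of V2a (2.13 to 2.55) and 8.94-fold that of V3 (7.66 to 10.501). Its E10.5 replicates differed by 1.18-fold at most. Scaling mattered for the other motoneuron comparisons too. Without those 5 miRNAs in the totals, miR-7b-5p in motoneurons was 1.49-fold the V2a level and 5.01-fold the V3 level. The miR-7a-5p ratio of motoneurons over V3 then went from 1.81 to 1.01. Under median-of-ratios scaling miR-7b-5p was 2.78-fold the V2a level and 7.57-fold the V3 level, and the miR-7a-5p ratio over V3 was 1.53.

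Over the 715 miRNAs considered at E12.5 the median ratio was 0.859 for motoneurons over V2a, 1.17 for motoneurons over V3 and 1.41 for V2a over V3. In motoneurons against V3, 28.5% of them were at least 2-fold higher in motoneurons, and 93.99% had a ratio no larger than that of miR-7b-5p. Against V2a, 14.0% were at least 2-fold higher in motoneurons, and miR-7b-5p was again among them. For V2a over V3, 29.8% were at least 2-fold higher in V2a, as were miR-7a-5p, miR-7b-5p, miR-7a-1-3p and miR-7a-2-3p. Under median-of-ratios scaling miR-7a-5p and miR-7a-2-3p were below 2-fold, at 1.69 and 1.74. The guide sum was 1540 TPM in the motoneuron library, 1704 in V2a and 693 in V3. Its ratio of motoneurons over V2a was 0.904 in TPM and 1.08 under median-of-ratios scaling, so the order of these 2 libraries depended on the scaling.

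Because miR-7a-5p and miR-7b-5p share nearly all of their sequence, their proportion was also read within each library. miR-7b-5p made up 23.96% of guide reads in motoneurons (95% exact binomial interval 22.9 to 25.1%), 9.36% in V2a (8.73 to 10.01%) and 5.99% in V3 (5.17 to 6.90%). The 3 intervals do not overlap, and the spread is wider than the 13.0% to 15.5% of the 4 E10.5 libraries. Between these guides reads may have been assigned by fractions, so the split itself carries an uncertainty that the intervals do not include.

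**Figure D4:**
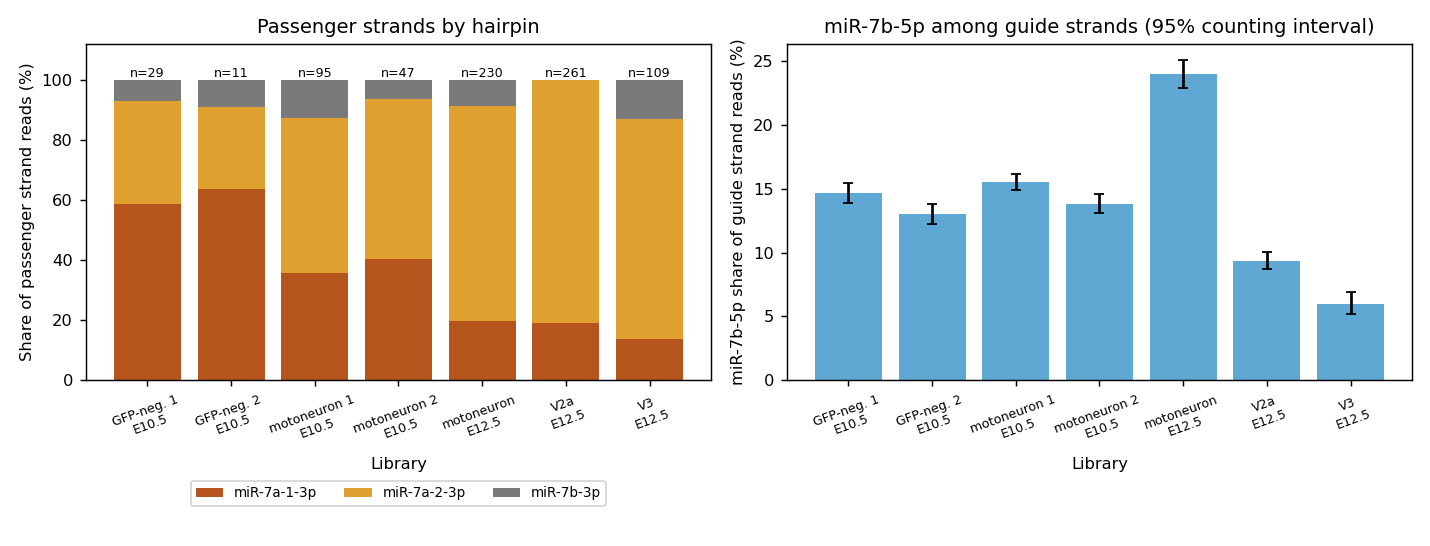
Left, share of the passenger strand reads from each hairpin in each library, with the number of reads (n) above the bar; right, share of guide strand reads assigned to miR-7b-5p, with 95% exact binomial intervals. Mir7-2 gives 27.3% and 34.5% of passenger reads in the GFP-negative libraries and 71.7% to 80.8% at E12.5, and the miR-7b-5p share is highest in E12.5 motoneurons at 23.96%.

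Among the passengers at E12.5, miR-7a-2-3p stood at 46.4 and 46.9 TPM in motoneurons and V2a (165 and 211 reads) and at 19.1 TPM in V3 (80 reads). The ratio of motoneurons over V2a was 0.989 (95% counting interval 0.802 to 1.22) and that of motoneurons over V3 was 2.43 (1.85 to 3.21). With the 5 most abundant miRNAs left out of the totals these were 0.632 and 1.36, and under median-of-ratios scaling 1.18 and 2.05. miR-7a-1-3p was likewise lowest in V3, with 12.7 TPM in the motoneuron library, 11.1 in V2a and 3.61 in V3 (45, 50 and 15 reads). The Mir7-2 passenger thus made up 78.6%, 80.8% and 84.2% of the reads of both Mir7a passengers in motoneurons, V2a and V3, with overlapping intervals.

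miR-7b-3p differed from these. It stood at 5.69 TPM in motoneurons (20 reads) and 3.37 TPM in V3 (14 reads), and no read was listed in V2a, where up to 3 reads, or 0.67 TPM, are allowed by a count of 0. The motoneuron level was at least 8.53-fold and the V3 level at least 5.04-fold that of V2a, taking 3 reads in the V2a library as the floor. Its guide did not follow this order, since miR-7b-5p had 3.83-fold more TPM in V2a than in V3 (95% counting interval 3.26 to 4.54). Per nucleotide, miR-7b-5p exceeded miR-7b-3p by 62.8-fold in motoneurons (40.9 to 104), by 11.9-fold in V3 (6.88 to 22.1) and by at least 230-fold in V2a. The values of miR-7b-3p in motoneurons and of miR-7a-2-3p in V3 came to 20.2 and 79.6 reads, so fractions of reads were assigned to these rows. In the same libraries the other strand of this pair came to whole reads, 165 for miR-7a-2-3p and 14 for miR-7b-3p. The source of the fractions was not tested.

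**Figure D5:**
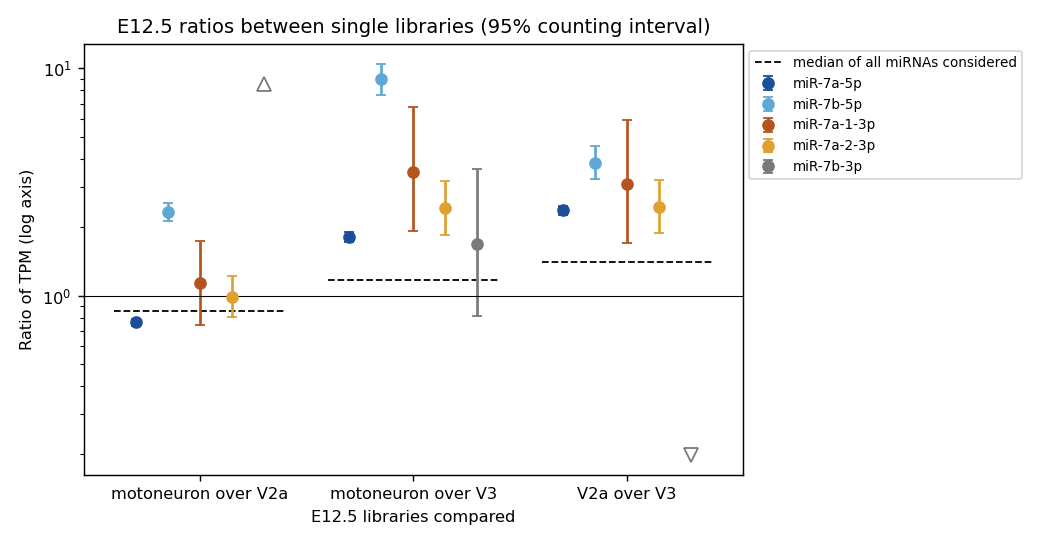
Ratio of TPM between the single E12.5 libraries for each miR-7 strand, on a log axis, with 95% counting intervals; open triangles are bounds where V2a had 0 reads of miR-7b-3p, and dashed lines are the median ratio of all 715 miRNAs considered. miR-7b-5p lies at 2.33, 8.94 and 3.83 in the 3 comparisons, above miR-7a-5p at 0.763, 1.81 and 2.37.

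Between stages the tables were scaled separately, so levels were not tested, and stage and table cannot be told apart. Of all reads, the guide sum took 1.74% and 1.66% in the E10.5 motoneuron libraries, and it took 0.154% of TPM in the E12.5 motoneuron library. Ranks among all miRNAs for miR-7a-5p were 62 in motoneurons, 57 in V2a and 73 in V3 at E12.5. The ratio of miR-7a-5p to both its passengers, which needs no scaling between libraries, was 20.02, 26.7 and 28.7 in E12.5 motoneurons, V2a and V3, below all 4 E10.5 libraries. In motoneurons alone it was 136 and 154 at E10.5 against 20.02 at E12.5.

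The partners of miR-7 in the Cdr1as circuit were measured in the same libraries. miR-671-5p, the strand that directs slicing of Cdr1as, had 127 and 148 RPM in E10.5 motoneurons and 99.0 and 113 RPM in GFP-negative cells, and its log2 fold change of 0.37 did not pass (SE 0.27, limma adjusted p = 0.309). miR-671-3p, the other arm, had 135 and 118 RPM against 56.6 and 78.0 RPM and missed the threshold by little (log2 fold change 0.91, SE 0.31, limma adjusted p = 0.0514). It passed under median-of-ratios scaling (log2 fold change 1.18, limma adjusted p = 0.0178) and missed with only all-zero rows removed (limma adjusted p = 0.100). At E12.5 miR-671-3p stood at 56.6 TPM in the motoneuron library, 39.2 in V2a and 16.6 in V3. This is the order of miR-7b-5p and miR-7a-1-3p but not of miR-7a-5p. Of all 715 miRNAs considered, 246 were higher in motoneurons than in both other libraries. miR-671-5p was at 8.34, 1.06 and 0 TPM in the same libraries.

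miR-375-3p, which like miR-7 is abundant in pancreatic islets, went the other way. It stood at 14.95 and 8.11 RPM in E10.5 motoneurons and at 66.9 and 70.6 RPM in GFP-negative cells (log2 fold change -2.53, SE 0.42, limma adjusted p = 0.0037). Only the GFP-negative libraries, where it is high, brought it over the abundance filter of 15.2 RPM. Under the all-zero filter, which ignores the groups, this drop still passed (limma adjusted p = 0.0083). Leaving out either GFP-negative library took this miRNA out of the test. At E12.5 it was lowest in motoneurons and highest in V3, with 9.01 and 291 TPM. Among 14 other neuron-enriched miRNAs, 10 were tested at E10.5. Of these, 4 were called higher, namely miR-124-3p, miR-124-5p, miR-153-3p and the motoneuron marker miR-218-5p, and none lower. Over all 492 miRNAs tested, 11.6% were called higher and 30.7% lower. The median log2 fold change of the 10 neuron-enriched miRNAs tested was 0.48, against -0.34 over all miRNAs tested. Without either motoneuron replicate, or without non-motoneuron replicate 2, 2 of them were called higher.

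Similarity of pattern was measured as the root mean square difference of log2 values over all 7 libraries, each miRNA centred within its table, among 408 miRNAs. For miR-7a-2-3p the nearest was miR-124-3p, the neuronal miRNA, at a distance of 0.27, where the median over all miRNAs was 1.23. miR-124-3p stood at 445 and 306 RPM in E10.5 motoneurons, 95.2 and 74.3 RPM in GFP-negative cells, and 157, 147 and 57.9 TPM in E12.5 motoneurons, V2a and V3. The next were miR-760-3p, miR-384-3p, miR-672-5p and miR-669c-5p, at 0.51 to 0.58. For miR-7a-5p the nearest were miR-325-5p, miR-690, miR-1964-3p, miR-330-5p and miR-1198-5p, at 0.18 to 0.24 against a median of 0.59. Within the family, miR-7a-5p lay nearer to miR-7a-1-3p (0.44) than to miR-7b-5p (0.63) or miR-7a-2-3p (0.88), and these distances are descriptions of 7 libraries with no test.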

How the data were processed

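Small RNAs of 7 sorted spinal cell libraries had been made with a NEBNext kit, per the labels' protocols, and the submitters' processing notes list Bowtie2 without a version. Counter, build and annotation were not given in the sources used here. For E10.5 the authors deposited RPM, with a sum of 1000000 in each library. For E12.5 the authors deposited values without a stated unit, which were read as FPKM, because the smallest steps of its values, times the RefSeq length (known for 1603 of 1908 rows), were 1 constant per library. It was rescaled to TPM.

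Depths came from those steps. At E10.5, the share of low values within 0.05 of whole reads was 97.4% to 100% in single-row bundles and 88.3% to 91.6% over all rows, and it was 72.2% to 79.1% at E12.5. Counts behind shares and intervals were rounded. PCR copies are not independent molecules, so intervals and the 3-read floors (3.74 to 6.08 RPM at E10.5, 0.67 to 0.84 TPM at E12.5 for 22 nt) cover counting error only.

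The E10.5 contrast was fitted in limma 3.58.1 (R 4.3.3, two-sided, with a mean-variance trend, Benjamini-Hochberg adjustment, threshold 0.05) on log2(RPM + 1), which understates changes of low miRNAs. miRNAs needed 15.2 RPM (10 reads in a library of median depth) in at least 2 libraries. The procedure was tested on simulated data. E12.5 miRNAs were considered from 2.4 TPM in at least 2 libraries. Named are the 5 members, fixed partner lists and the 5 miRNAs nearest in pattern to miR-7a-5p and miR-7a-2-3p. The members and lists were chosen with earlier results of these data known. Alternatives covered pseudocount, filter, scaling, the replicate number as a term and each library left out.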

Additional observations from a re-analysis of the deposited data

How the results depend on the processing

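At E10.5, 3 members were called higher, including miR-7a-2-3p, which reached the filter only through motoneurons, and 1 was with only all-zero rows removed or with the mesenchymal and skeletal muscle markers out of the totals, and 0 to 3 with 1 library left out. The count of members called was 4 with a pseudocount of 5 RPM, the median of ratios or quantile normalization. It was also 4 with totals without the 5 most abundant miRNAs or with the replicate number as a term. Over all 492 miRNAs tested, the main fit called 11.6% higher, and this share moved with the setting too. Called higher were 65 of 492 with the pseudocount, 85 of 483 with the median of ratios and 110 of 479 with quantile normalization. Totals without the 5 most abundant miRNAs gave 108 of 491, and the replicate term 67 of 492. All-zero rows removed gave 34 of 1270, and markers out of the totals 42 of 495. A fit without a motoneuron replicate no longer tests miR-7a-2-3p. The guide sum was 0.51 (limma adjusted p = 0.0869) with all-zero rows removed, 0.37 (limma adjusted p = 0.117) without the mesenchymal and muscle totals, and 0.36 to 0.66 with 1 library left out, passing only without non-motoneuron replicate 2. Over its alternatives the limma adjusted p ran from 0.00217 to 0.177. The cause was not tested. Quantile normalization put miR-7b-5p at 1.31 against 0.59. Of all miRNAs, 57 were called higher, against 34 with all-zero rows removed, 108 with totals without the 5 most abundant miRNAs, 110 with quantile normalization and 27 to 48 with 1 library left out. The 151 lower became 95 with quantile normalization and 106 to 125 with 1 library left out. The 4 neuron-enriched calls became 2 to 4 with 1 library left out.

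Equal replicate numbers deviated together with a correlation of 0.26 over 492 miRNAs, but nothing in the labels ties the numbers to a litter or sort, and there are 2 pairs. With the replicate block the guide sum kept 0.51 and missed the threshold (limma adjusted p = 0.0599), miR-7a-1-3p passed (limma adjusted p = 0.0477), and 67 miRNAs were called higher and 162 lower.

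At E12.5 the guide sum ratios of motoneurons over V2a, motoneurons over V3 and V2a over V3 were 1.08, 1.88 and 1.75 with the median of ratios and 0.578, 1.24 and 2.15 with totals without the 5 most abundant miRNAs. The first of these reversed. Values as deposited and a pseudocount of 1 gave guide sum ratios within the counting intervals. The planned count model was not run, because fractions of reads sit in shared rows. Depth limits the passengers most, since miR-7b-3p rests on 12 reads or fewer in each E10.5 library.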
